A study of Mus musculus with 22 samples.

Results

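The 10 genes described here code for the Toll-like receptors TLR1, TLR2, TLR3, TLR4, TLR6, TLR7 and TLR9, for CD14 and MD-2 (gene Ly96), which form the LPS receptor complex with TLR4, and for the adaptor MyD88. They were chosen by name, and all 16 probe sets that name 1 of them and no other gene were used, out of 45037 probe sets tested and 18193 genes with a probe set of their own. Levels were measured on 22 Affymetrix mouse genome expression arrays of CD11c+CD8α- dendritic cells (DCs) that had been sorted by flow cytometry from the pancreas of female mice at 5 weeks of age. Figure legends of the study give 10 pooled mice per sample for its Q-PCR and cytokine measurements of cultured cells. Each array is taken here to be such a pool. NOD mice, which develop autoimmune diabetes later in life and were not yet diabetic, were compared with C57BL/6 mice, which do not develop it. Freshly sorted DCs, called steady state, gave 4 C57BL/6 and 3 NOD arrays. Sorted DCs were also cultured for 18 h with PBS as the control (4 C57BL/6 and 4 NOD arrays) or with LPS, the endotoxin of Gram-negative bacteria (3 C57BL/6 and 4 NOD arrays). The series description calls the cultures a separate experiment, while the study's methods describe them as the rest of the sorted cells. Neither strain carried a transgene or a targeted allele by the labels, and the strains differ in their whole genetic background. The values are deposited log2 levels, so a difference of 1 is a doubling, and a probe set counts as higher or lower where limma gave p under 0.1 after Benjamini-Hochberg adjustment across the 45037 probe sets. In sorted pools, fewer cells that express a gene and less RNA per cell cannot be told apart.

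Toll-like receptors bind conserved parts of microbes. At the surface of DCs and macrophages TLR4 with MD-2 binds LPS that CD14 has loaded onto it, and TLR2 paired with TLR1 or TLR6 binds bacterial lipopeptides. In the endosome TLR3 binds double-stranded RNA, TLR7 single-stranded RNA and TLR9 DNA rich in CpG. MyD88 carries the signal of all of these except TLR3 to NF-κB and the inflammatory cytokines, while TLR3 and internalised TLR4 signal through TRIF to interferon β. Ligation of these receptors matures DCs, which then present antigen and secrete cytokines that steer T cells.

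RefSeq promoter windows (build GRCm38.p6, a C57BL/6J sequence) were given for 6 of the 10 genes. They are shown for the 4 of these whose change on culture was called different between the strains, as described below. That is 1 of several comparisons in which members were called with strain. The 250 bases before the start of transcription were searched on both strands for an NF-κB site by its consensus, for an interferon-stimulated response element (ISRE, GAAANNGAAA), for a PU.1 site (GAGGAAGT) and for an AP-1 site (TGACTCA), and matches are in capitals. For Myd88 and Tlr9 the whole stretch is given, on the minus strand of chr9:119340019-119340268 and the plus strand of chr9:106222348-106222597. Of the Tlr2 window 216 bases, and of the Tlr3 window all 250, lie inside the annotated span of the gene. Only 30 bases around their match are therefore given, on the minus strand of chr3:83841762-83841791 and of chr8:45410572-45410601.
Myd88: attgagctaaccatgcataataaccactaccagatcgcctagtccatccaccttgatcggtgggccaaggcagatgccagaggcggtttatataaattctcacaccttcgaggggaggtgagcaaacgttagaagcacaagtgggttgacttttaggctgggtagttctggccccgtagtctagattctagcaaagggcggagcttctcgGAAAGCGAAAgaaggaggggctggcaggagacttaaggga
Tlr9: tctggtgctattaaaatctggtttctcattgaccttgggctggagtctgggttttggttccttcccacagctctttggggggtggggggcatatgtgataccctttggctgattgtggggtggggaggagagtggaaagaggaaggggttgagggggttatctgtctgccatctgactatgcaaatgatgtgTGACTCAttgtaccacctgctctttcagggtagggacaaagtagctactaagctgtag
Tlr2: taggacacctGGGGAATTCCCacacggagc
Tlr3: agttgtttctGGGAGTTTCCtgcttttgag
The Myd88 stretch held an ISRE match 40 to 31 bases before the start, and the Tlr9 stretch an AP-1 match 58 to 52 bases before it. The Tlr2 capitals are an NF-κB match on each strand, overlapping by all but 1 base, and the Tlr3 capitals are a single NF-κB match. Of all 32851 windows of this length, 3.90% held the NF-κB consensus, 2.98% the ISRE, 2.44% the PU.1 site and 4.46% the AP-1 site. Matches also lay in windows not shown, of genes whose change on culture was not called different between the strains. A Tlr1 window held a PU.1 match 23 to 16 bases before the start, and a Tlr6 window an ISRE match 110 to 101 bases before it. A match describes letters in the reference and not a bound site.

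In steady state cells the DC marker Itgax, which codes for CD11c, stood at 11.32 ± 0.05 (SD, n = 4) in C57BL/6 and 10.89 ± 0.06 (SD, n = 3) in NOD, and Cd8a at 7.56 ± 0.24 and 7.78 ± 0.13, close to the array medians of 7.63 to 7.68. After PBS culture Itgax was at 9.03 and 8.93, and Cd209a, a lectin of CD8α- DCs, had gone from 11.53 to 6.66 in C57BL/6 and from 11.24 to 6.76 in NOD. Of 10 CD8α- DC markers, 3 were lower in NOD than in C57BL/6 steady state cells, next to 7.94% of all probe sets, and 0 were higher. Their summed linear level was nevertheless higher in NOD, at 38415 to 41266 against 34787 to 37688. With culture 6 fell in NOD and 0 rose, next to 29.3% and 37.8% of all. In C57BL/6 6 fell and 3 rose, next to 30.5% and 42.1% of all. Macrophage genes were abundant throughout. The summed linear level of 13 macrophage markers ranged from 104418 to 117645 in C57BL/6 and from 109505 to 116056 in NOD steady state cells, from 75432 to 84540 and 69897 to 78266 after PBS, and from 60347 to 66601 and 58344 to 61359 after LPS. No pair of arrays held identical values.

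**Figure D1:**
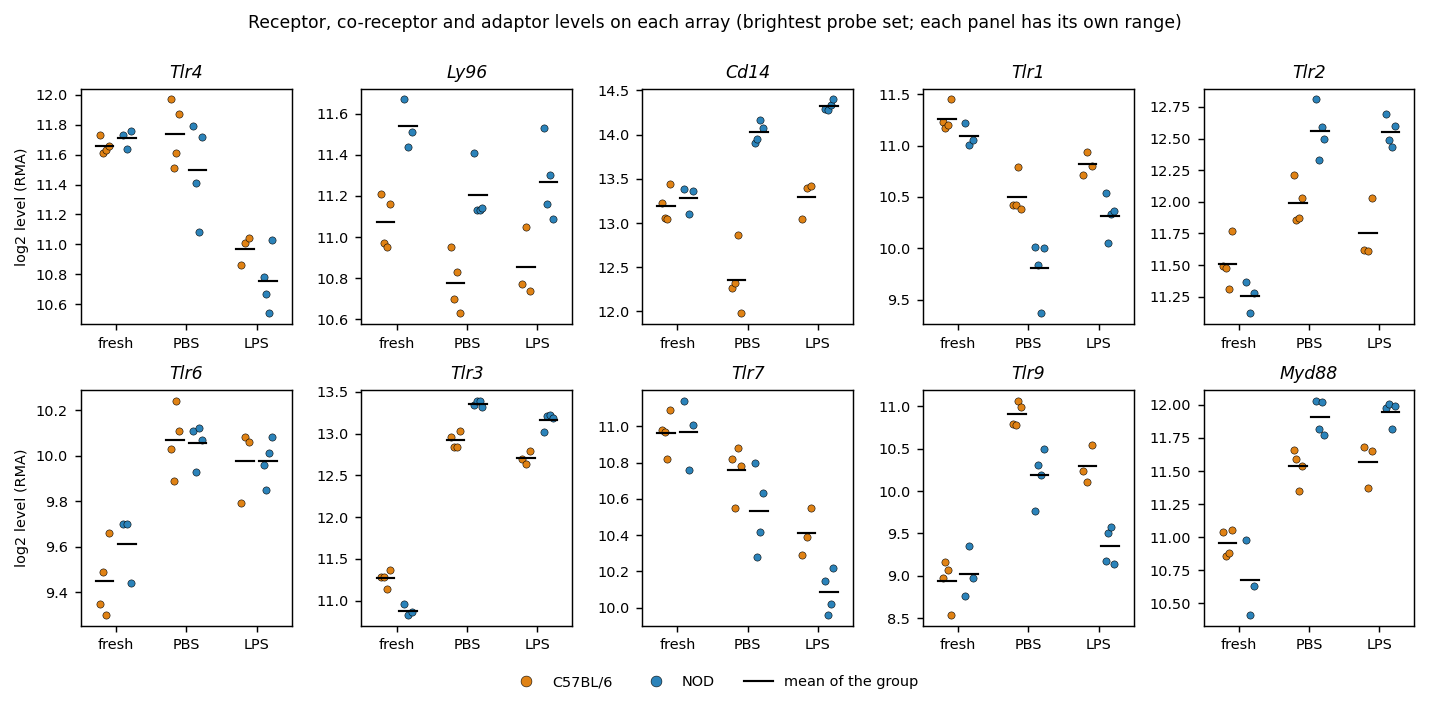
Log2 RMA level on every array for the brightest probe set of each of the 10 genes, in freshly sorted (fresh), PBS-cultured and LPS-cultured cells of C57BL/6 (orange) and NOD (blue). Points are arrays and bars are group means. Cd14 lay near 13.2 in fresh cells of both strains and parted by 1.66 after PBS culture, while Tlr4 was lower after LPS than after PBS in both strains.

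The members called between the strains were not the same in each condition. In steady state cells 3 of the 16 probe sets were called between NOD and C57BL/6 (18.8%), next to 15% of all probe sets (7.09% higher and 7.94% lower). These were Ly96, higher in NOD, and the pair of Tlr3 probe sets, lower in NOD. After PBS culture 8 of the 16 were called, next to 9.87% of all (4.78% higher and 5.09% lower): Cd14, Ly96, Myd88, Tlr2 and both Tlr3 probe sets were higher in NOD, and Tlr1 and Tlr9 were lower. After LPS culture 6 were called, next to 9.91% of all (5.03% higher and 4.88% lower). Higher in NOD were then Cd14, Tlr2 and both Tlr3 probe sets, and lower were Tlr1 and Tlr9. The largest difference was that of Cd14, 1.66 (SE 0.17, 3.17-fold) after PBS and 1.03 (SE 0.13, 2.04-fold) after LPS. The number of probe sets without overlap between the strains was 3 in steady state, 9 after PBS and 9 after LPS, against 23.0%, 12.9% and 17.6% of all probe sets.

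**Figure D2:**
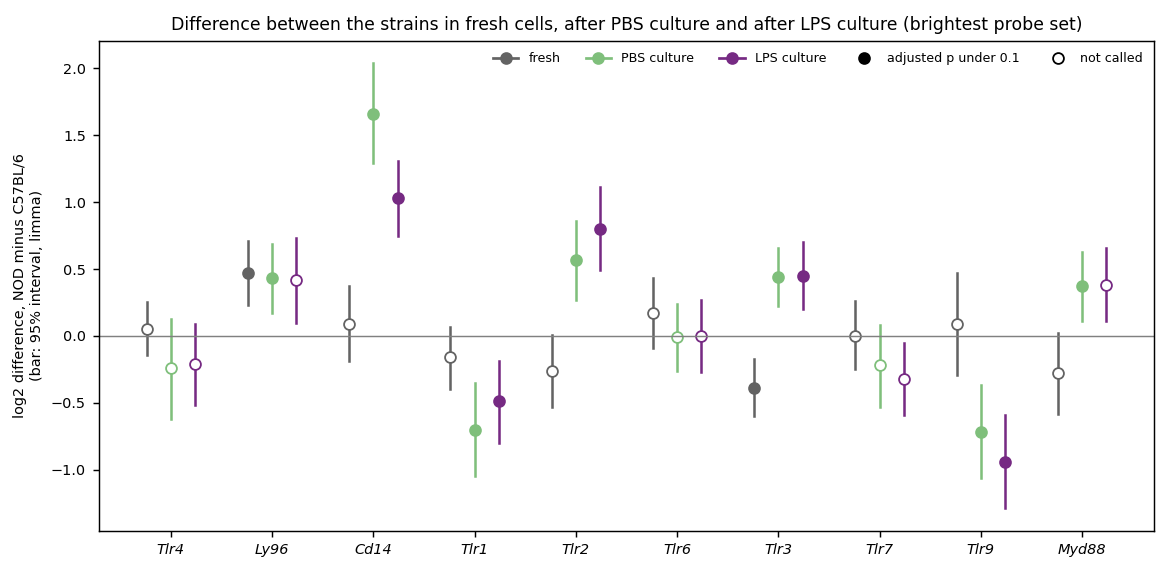
Log2 difference of NOD minus C57BL/6 for the brightest probe set of each gene in fresh cells (grey), after PBS culture (green) and after LPS culture (purple), with the 95% interval from limma. Filled points have an adjusted p under 0.1. The strain difference of Tlr3 was -0.39 in fresh cells and 0.44 after PBS culture, and that of Tlr4 crossed 0 with its interval in all 3 conditions.

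In fits without replicate pairs, where LPS was called to change a member it lowered it, with the exception of Cd14 in C57BL/6. The LPS effect was not called different between the strains for any member. In NOD cells 6 of the 16 probe sets fell with LPS and none rose, next to 3.76% of all probe sets called and 2.08% that fell. They were 3 of the 4 Tlr4 probe sets, 2 of the 3 of Tlr7, and Tlr9. In C57BL/6 cells 3 probe sets fell, all of Tlr4, next to 0.762% of all, and Cd14 rose, next to 0.715% of all, which makes 4 called next to 1.48% of all. The median difference of the 16 probe sets was -0.21 in NOD and -0.35 in C57BL/6, with that of all probe sets at 0.00 and 0.02. Groups did not overlap for 8 probe sets in NOD and 9 in C57BL/6, against 8.10% and 10.8% of all. The strain by LPS interaction, the effect in NOD minus that in C57BL/6, was called for 0 of the 16 and for 0.0244% of all probe sets. At an unadjusted p under 0.05 in limma it held 2 of the 16, Cd14 and 1 probe set of Tlr4. The share of all probe sets at that level was not counted, so this count gives no result about the members. In C57BL/6 the LPS calls rest on 3 LPS arrays and leaving out single arrays left 0 to 3 of them. A limma fit with equal replicate numbers as pairs in a block changed some LPS calls. In NOD it called Cd14 (0.30, adjusted p = 0.0875) and Tlr1 (0.52, 0.0586) higher and Tlr7 1422010_at (-0.45, 0.0307) lower. In C57BL/6 the Cd14 call was lost (0.90, adjusted p = 0.114).

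**Figure D3:**
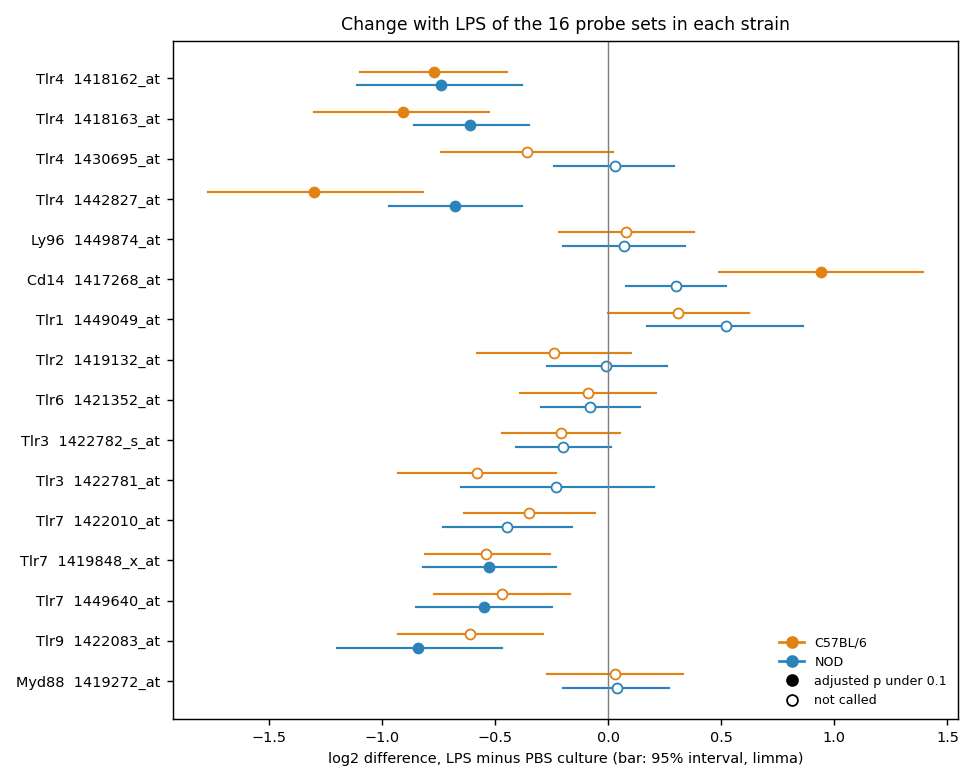
Log2 difference of LPS minus PBS culture for each of the 16 probe sets, with the 95% interval from limma, in C57BL/6 (orange) and NOD (blue). Filled points have an adjusted p under 0.1. The 3 bright Tlr4 probe sets fell in both strains, Cd14 rose by 0.94 in C57BL/6, and Ly96 and Myd88 lay close to 0.

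Tlr4, the signalling chain of the LPS receptor, did not differ between the strains beyond the replicate error in steady state cells. Its brightest probe set (1418162_at) read 11.73, 11.61, 11.63 and 11.66 on the C57BL/6 steady state arrays and 11.73, 11.64 and 11.76 on those of NOD, and the groups overlapped. The difference was 0.05 (95% interval -0.14 to 0.25, adjusted p = 0.741). After PBS culture it read 11.97, 11.51, 11.61 and 11.87 in C57BL/6 and 11.79, 11.41, 11.08 and 11.72 in NOD. After LPS it read 10.86, 11.01 and 11.04 in C57BL/6 and 10.78, 10.67, 10.54 and 11.03 in NOD, so that every LPS array of a strain lay below every PBS array of that strain. Tlr4 fell by 0.74 (SE 0.17, 1.67-fold, adjusted p = 0.0426 in limma) in NOD and by 0.77 (SE 0.14, 1.71-fold, adjusted p = 0.0517) in C57BL/6. The interaction was 0.03 (95% interval -0.46 to 0.52, adjusted p = 1.0), an interval that leaves room for a difference of up to 0.52 between the strains.

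The other Tlr4 probe sets gave the fall different sizes. Probe set 1418163_at fell by 0.61 in NOD and by 0.91 in C57BL/6, and 1442827_at by 0.68 in NOD and by 1.30 in C57BL/6. For 1442827_at the interaction was 0.62 (95% interval 0.07 to 1.17), with an unadjusted p of 0.0287 and an adjusted p of 1.0 in limma. Between the strains after PBS it read -0.37 (adjusted p = 0.227), and with equal replicate numbers as pairs in a block the adjusted p was 0.0717. The remaining probe set, 1430695_at, lay between 4.58 and 5.64, below the lower quartile of all 22 arrays, and read 0.03 (NOD) and -0.36 (C57BL/6) with LPS, neither called. In NOD the call of 1418162_at was lost without PBS replicate 1 (adjusted p = 0.110), PBS replicate 4 (0.134), LPS replicate 2 (0.119) or LPS replicate 3 (0.119), while 1418163_at and 1442827_at kept their call in all 8 such fits. In C57BL/6 it was lost without PBS replicate 1 (0.146) or 4 (0.141) or LPS replicate 2 (0.183), 3 (0.148) or 4 (0.124), and over all 7 fits the difference ranged from -0.85 to -0.70. In C57BL/6 the call of 1418163_at was lost without PBS replicate 1 (0.162), 3 (0.101) or 4 (0.145) or LPS replicate 2 (0.189), 3 (0.158) or 4 (0.102), and that of 1442827_at without PBS replicate 1 (0.126) or 4 (0.124) or LPS replicate 2 (0.123) or 3 (0.122). Macrophage markers moved with LPS as well, with 6 of 13 lower and 1 higher in NOD (median -0.37), next to 2.08% and 1.68% of all probe sets. In C57BL/6 3 were lower (median -0.33), next to 0.762% of all. C1qc, a complement component of macrophages, fell by 1.04 in NOD and by 0.93 in C57BL/6. Their part in the Tlr4 result was not tested. On PBS culture 1442827_at fell by 0.60 (adjusted p = 0.00375 in limma) and 1418163_at by 0.26 (0.0874) in NOD. With the block these adjusted p were 0.101 and 0.503. In C57BL/6 they read -0.14 and 0.12, neither called. Their change on culture was not called different between the strains (-0.46 and -0.39). The brightest probe set read -0.21 in NOD and 0.08 in C57BL/6, neither called. The dim 1430695_at rose by 0.42 and 0.62.

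**Figure D4:**
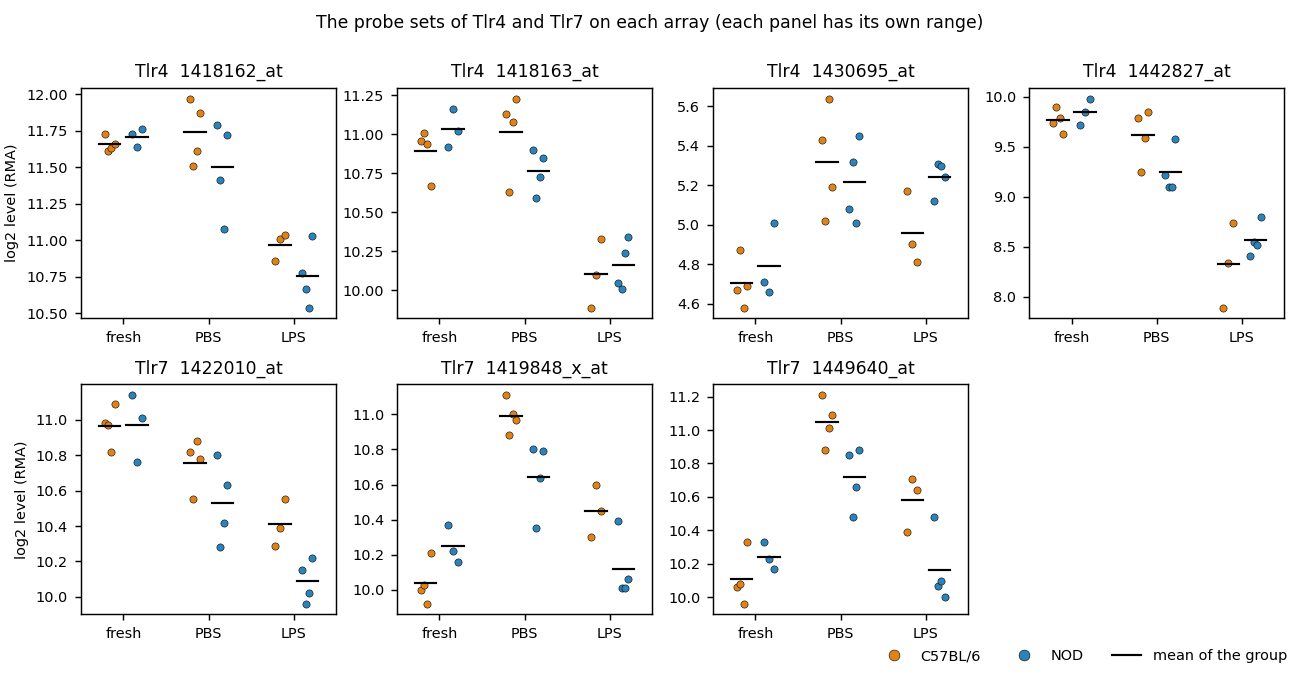
Log2 RMA level on every array for the 4 probe sets of Tlr4 (upper row) and the 3 of Tlr7 (lower row) in fresh, PBS-cultured and LPS-cultured cells of C57BL/6 (orange) and NOD (blue), with group means as bars. Tlr4 1418162_at, 1418163_at and 1442827_at lay lower with LPS in both strains while 1430695_at stayed near 5, and the Tlr7 probe sets disagree on the change with culture.

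Cd14, the co-receptor that hands LPS to TLR4 and MD-2, was the member with the largest difference between the strains, which was called in cultured cells and not in steady state cells. It read 13.23, 13.06, 13.05 and 13.44 in C57BL/6 and 13.39, 13.10 and 13.36 in NOD steady state cells. After PBS it read 12.26, 12.32, 12.86 and 11.98 in C57BL/6 and 13.91, 13.95, 14.17 and 14.07 in NOD, so that the lowest NOD array, at 13.91, lay well above the highest C57BL/6 array, at 12.86. After LPS it read 13.05, 13.40 and 13.42 in C57BL/6 and 14.29, 14.28, 14.33 and 14.40 in NOD. In steady state cells the strains differed by 0.09 (95% interval -0.19 to 0.37, adjusted p = 0.687). On PBS culture Cd14 rose by 0.74 (SE 0.13, adjusted p = 0.000406) in NOD and fell by 0.84 (SE 0.17, adjusted p = 0.00117) in C57BL/6, a difference between the strains of 1.57 (95% interval 1.10 to 2.05, adjusted p = 0.000374 in limma). That call held without any 1 of the 15 arrays, with differences of 1.45 to 1.74. The LPS mean of C57BL/6, 13.29, was back at the level of its steady state cells, 13.19, and the ranges of these groups overlapped.

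With LPS, Cd14 rose by 0.94 (SE 0.20, 1.91-fold, adjusted p = 0.0822) in C57BL/6. In NOD the difference was 0.30 (SE 0.10, 1.23-fold, adjusted p = 0.184), not called, although all 4 LPS arrays lay above all 4 PBS arrays. The replicate numbers were shared between groups and treated as pairs, and with the pairs as a block these became 0.90 (adjusted p = 0.114) in C57BL/6 and 0.30 (adjusted p = 0.0875) in NOD, so that each call turned. The C57BL/6 call held in 1 of 7 fits that left out an array and was lost without PBS replicate 1 (adjusted p = 0.212), 2 (0.139) or 4 (0.193) or LPS replicate 2 (0.154), 3 (0.253) or 4 (0.211). The interaction was -0.63 (95% interval -1.10 to -0.16), with an unadjusted p of 0.0112 and an adjusted p of 1.0 in limma. NOD LPS arrays held Cd14 near the top of the scale, where 0.0777% to 0.133% of probe sets were brighter, against 0.919% to 1.49% in C57BL/6, and what that leaves of the range for a further rise was not tested. Monocyte markers, whose cells carry CD14, gave 1 of 6 higher and 1 lower in NOD after PBS (median -0.22). Macrophage markers gave 1 of 13 higher and 4 lower (median -0.08). Over all probe sets 4.78% were higher and 5.09% lower in NOD after PBS.

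Ly96 codes for MD-2, the part of the complex that binds lipid A. It was higher in NOD by 0.47 (SE 0.11, 1.38-fold, adjusted p = 0.0191) in steady state cells, where C57BL/6 ranged from 10.95 to 11.21 and NOD from 11.44 to 11.67. The difference was 0.43 after PBS (adjusted p = 0.0565) and 0.42 after LPS (adjusted p = 0.131), and in each condition the strains did not overlap. Leaving out C57BL/6 PBS replicate 2 (adjusted p = 0.135) or 4 (0.130) or NOD PBS replicate 1 (0.135) or 3 (0.101) ended the PBS call. LPS moved Ly96 by 0.07 in NOD (95% interval -0.20 to 0.34) and by 0.08 in C57BL/6 (-0.22 to 0.38). With culture it fell by 0.34 in NOD (adjusted p = 0.0339, but not called when NOD steady state replicate 1 was left out, at 0.130) and fell by 0.30 in C57BL/6 (adjusted p = 0.0347, but 0.104 when C57BL/6 steady state replicate 1 was left out), and the strain by culture interaction was -0.04 (adjusted p = 0.944).

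Tlr2, the common partner of TLR1 and TLR6, parted the strains on culture. It read 11.49, 11.48, 11.31 and 11.77 in C57BL/6 and 11.37, 11.12 and 11.28 in NOD steady state cells, 12.21, 11.86, 11.87 and 12.03 against 12.81, 12.33, 12.59 and 12.50 after PBS, and 11.62, 11.61 and 12.03 against 12.69, 12.49, 12.43 and 12.60 after LPS. The mean of NOD was lower by 0.26 in steady state (adjusted p = 0.221, with the pairs as a block -0.33 and 0.0931) and higher by 0.57 after PBS (adjusted p = 0.0261) and by 0.80 after LPS (adjusted p = 0.00766). Tlr2 rose with culture by 1.30 in NOD and by 0.48 in C57BL/6, and these rises differed by 0.83 (95% interval 0.43 to 1.22, adjusted p = 0.0144). LPS added -0.01 in NOD and -0.24 in C57BL/6, neither called.

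Tlr1, a partner of TLR2, was lower in NOD after culture. Its mean was 11.26 in C57BL/6 and 11.10 in NOD steady state cells, and with culture it fell by 0.76 in C57BL/6 and fell by 1.29 in NOD, falls whose difference was not called (interaction -0.54, 95% interval -0.97 to -0.10, adjusted p = 0.176). After PBS the arrays of C57BL/6 ranged from 10.38 to 10.79 and those of NOD from 9.37 to 10.01, a difference of -0.70 (SE 0.16, adjusted p = 0.0230). After LPS the difference was -0.49 (adjusted p = 0.0641), lost without C57BL/6 LPS replicate 3 (0.207) or 4 (0.131) or NOD LPS replicate 2 (0.145), 3 (0.125) or 4 (0.117). With LPS Tlr1 differed by 0.52 in NOD (adjusted p = 0.142, with the pairs as a block 0.0586) and by 0.31 in C57BL/6 (adjusted p = 0.473). Tlr6, the alternative partner of TLR2, was not called between the strains, with 95% intervals of -0.26 to 0.24 after PBS and -0.27 to 0.27 after LPS. It rose with culture by 0.44 in NOD and by 0.62 in C57BL/6, and read -0.08 and -0.09 with LPS.

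Tlr3, the endosomal sensor of double-stranded RNA, had the largest rise on culture of the 10 genes in NOD. Its brightest probe set (1422782_s_at) read 11.28, 11.28, 11.14 and 11.37 in C57BL/6 and 10.96, 10.83 and 10.86 in NOD steady state cells. After PBS it read 12.96, 12.84, 12.84 and 13.03 in C57BL/6 and 13.34, 13.39, 13.39 and 13.32 in NOD. The groups did not overlap in either condition, with NOD below C57BL/6 in the first and above it in the second. The steady state difference was -0.39 (SE 0.10, adjusted p = 0.0274; without NOD replicate 6 -0.37 and 0.107) and the difference after PBS 0.44 (SE 0.10, adjusted p = 0.0239). The rise with culture was 2.48 (5.58-fold) in NOD and 1.65 (3.14-fold) in C57BL/6, and the interaction was 0.83 (95% interval 0.55 to 1.10, adjusted p = 0.000985). Probe set 1422781_at gave -0.67 in steady state, 0.74 after PBS (adjusted p = 0.0370, and 0.102 without NOD PBS replicate 2) and an interaction of 1.41 (adjusted p = 0.00340). After LPS the strain difference was 0.45 (adjusted p = 0.0425) and 1.09 (adjusted p = 0.00379) for these probe sets. Leaving out C57BL/6 LPS replicate 2 or 3 or NOD LPS replicate 2, 3 or 4 put the first of these at an adjusted p of 0.103, 0.144, 0.107, 0.103 and 0.104. LPS itself gave -0.20 in NOD and -0.21 in C57BL/6 for the brightest probe set, neither called.

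Tlr9, the sensor of CpG DNA, was lower in NOD than in C57BL/6 after culture, and in steady state cells the difference was 0.09 (95% interval -0.29 to 0.47, adjusted p = 0.774). It read 8.97, 9.16, 9.07 and 8.54 in C57BL/6 and 8.76, 9.35 and 8.97 in NOD steady state cells, 10.79, 10.78, 11.06 and 10.99 against 9.76, 10.31, 10.19 and 10.49 after PBS, and 10.23, 10.11 and 10.54 against 9.18, 9.50, 9.58 and 9.14 after LPS. All cultured NOD arrays lay below all C57BL/6 arrays of the same treatment. The differences were -0.72 after PBS (SE 0.16, adjusted p = 0.0186) and -0.94 after LPS (SE 0.16, adjusted p = 0.00579). Tlr9 rose with culture by 1.16 in NOD and by 1.97 in C57BL/6 and fell with LPS by 0.84 in NOD (SE 0.17, adjusted p = 0.0243, a call kept in all 8 fits without an array). In C57BL/6 the LPS difference was -0.61 (SE 0.14, adjusted p = 0.111), and the interaction was -0.23 (95% interval -0.71 to 0.26, adjusted p = 1.0), an interval that includes 0. TLR9 is abundant in B cells and plasmacytoid DCs. The 6 B cell markers measured had a summed level of 2923 to 5382 in C57BL/6 and 1583 to 2989 in NOD after PBS. Of these 2 were lower in NOD, next to 5.09% of all probe sets, with a median difference of -0.56. Of the 8 plasmacytoid DC markers none was called between the strains after PBS (median 0.03). With LPS 3 fell in NOD, next to 2.08% of all, where Siglech fell by 1.09. In steady state 4 of the 8 were higher in NOD (median 0.47), next to 7.09% of all. In the strain by culture interaction the median of these markers was -0.48. Spib was called (-0.85), next to 2.82% of all that were more negative. An unadjusted p under 0.05 in limma held for 5 of the 8, a level not counted over all probe sets. The part of the B cell and plasmacytoid DC markers in the Tlr9 differences was not tested.

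Tlr7, the sensor of single-stranded RNA, fell with LPS in NOD on 2 of its 3 probe sets, by 0.53 (1419848_x_at, adjusted p = 0.0775) and by 0.55 (1449640_at, adjusted p = 0.0657). The brightest, 1422010_at, gave -0.45 (adjusted p = 0.119, with the pairs as a block 0.0307). Leaving out PBS replicate 1, 3 or 4 or LPS replicate 2, 3 or 4 ended both calls, with adjusted p from 0.102 to 0.216. In C57BL/6 the 3 gave -0.54, -0.47 and -0.35, none called. The probe sets disagreed on culture: 1422010_at read 10.97 in steady state and 10.76 after PBS in C57BL/6, while 1419848_x_at and 1449640_at rose by 0.95 and 0.94. In NOD 1422010_at fell by 0.43 (adjusted p = 0.0284, and 0.116 without steady state replicate 1) and the others rose by 0.39 (adjusted p = 0.0294, and 0.111 without steady state replicate 6) and 0.47. The latter probe sets are 2 readings of 1 database sequence and are not independent. Tlr7 was not called between the strains in any condition, with values of -0.22 to -0.35 after PBS and of -0.32 to -0.42 after LPS; with the pairs as a block 1419848_x_at and 1449640_at were lower in NOD after PBS (adjusted p = 0.0711 and 0.0642) and after LPS (0.0863 and 0.0538).

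Myd88, the shared adaptor, rose with culture by 1.23 (SE 0.15, 2.35-fold) in NOD and by 0.58 (SE 0.11, 1.49-fold) in C57BL/6. These rises differed by 0.65 (95% interval 0.27 to 1.03, adjusted p = 0.0467), a call lost without NOD steady state replicate 4 (0.158) or 6 (0.116). C57BL/6 ranged from 10.86 to 11.05 in steady state and from 11.35 to 11.66 after PBS, and NOD from 10.41 to 10.98 and from 11.77 to 12.03. The strain difference was -0.28 (adjusted p = 0.226) in steady state, 0.37 (adjusted p = 0.0941) after PBS and 0.38 (adjusted p = 0.108, with the pairs as a block 0.37 and 0.0988) after LPS. None of the fits without an array of the PBS groups kept the call after PBS (adjusted p from 0.104 to 0.227), whichever of the 4 C57BL/6 or 4 NOD arrays was left out. With LPS Myd88 read 0.04 in NOD (95% interval -0.20 to 0.27) and 0.03 in C57BL/6 (-0.27 to 0.33).

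Most probe sets of the array were called between steady state and PBS culture. In NOD 15 of the 16 probe sets were called between PBS culture and steady state, next to 67.1% of all, with 10 higher (37.8% of all) and 5 lower (29.3% of all). In C57BL/6 it was 12, next to 72.7% of all, with 9 higher (42.1% of all) and 3 lower (30.5% of all). Groups did not overlap for 12 probe sets in each strain, against 60.6% and 59.5% of all. The strain by culture interaction was called for 7 of the 16, next to 6.80% of all probe sets (3.98% more positive and 2.82% more negative): Cd14, Myd88, Tlr2 and both of Tlr3 were more positive in NOD, and Tlr9 (-0.81) and 1 probe set of Tlr7 (1419848_x_at, -0.56) more negative. The Tlr9 and Tlr7 calls were kept in 7 of 15 fits without an array each. That of Tlr9 went above the threshold when C57BL/6 PBS replicate 3 (0.129) or 4 (0.115), NOD PBS replicate 1 (0.135) or 3 (0.118), replicate 1 (0.120) or 6 (0.158) of the C57BL/6 steady state cells, or replicate 4 (0.242) or 6 (0.133) of the NOD steady state cells was left out. For the Tlr7 probe set the same held without C57BL/6 steady state replicate 1 (0.120), 4 (0.106) or 5 (0.125), NOD steady state replicate 1 (0.134) or 4 (0.118), C57BL/6 PBS replicate 1 (0.109), or NOD PBS replicate 2 (0.107) or 3 (0.101). Since the sources differ on whether cultured and steady state cells came from the same sorts, a part of the sort in these differences cannot be told apart from that of culture. The summed level of 6 pancreas parenchyma markers was 43309 to 56837 in C57BL/6 steady state cells and 2904 to 20716 after PBS. In NOD it was 31583 to 62221 and 3234 to 28003. T cell markers gave 3487 to 3599 and 10072 to 12477 in C57BL/6, and 3421 to 4434 and 10457 to 11986 in NOD. Plasmacytoid DC markers gave 15600 to 17527 and 26258 to 28913, and 17952 to 20509 and 28621 to 31246. The part of such shifts in the culture differences was not tested. The PBS arrays enter the culture, the LPS and the PBS strain comparisons, so these values are not independent of each other.

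The LPS response of the cells is set beside these levels through 20 cytokine and mediator genes known to be induced by LPS. In NOD 14 rose with LPS and none fell (median 0.98), and in C57BL/6 14 rose and none fell (median 1.12), where over all probe sets 1.68% and 0.715% rose. The largest rises in NOD were those of Csf2 (3.29), Csf3 (2.33), Lcn2 (2.21) and Il10 (2.06), and in C57BL/6 those of Csf3 (3.11), Lcn2 (2.30), Il12a (1.90), Il1b (1.90) and Il1a (1.90). Tnf rose by 0.80 in NOD and by 0.73 in C57BL/6, and Il6 by 1.59 and 1.25. Csf2, the growth factor GM-CSF, was at 8.75 ± 0.938 (SD, n = 4) after PBS and 12.04 ± 0.485 (SD, n = 4) after LPS in NOD, and at 8.53 ± 0.593 (SD, n = 4) and 9.68 ± 0.332 (SD, n = 3) in C57BL/6, where 1.15 was not called (adjusted p = 0.147). Its interaction was 2.14 (SE 0.57) with an adjusted p of 0.818. The interaction was called for 0 of the 20 in limma, next to 0.0244% of all probe sets. An unadjusted p under 0.05 held for 3: Csf2, Cxcl1 (-0.78, adjusted p = 0.907) and Ccl3 (-0.35, adjusted p = 1.0). The share of all probe sets at that unadjusted level was not counted.

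**Figure D5:**
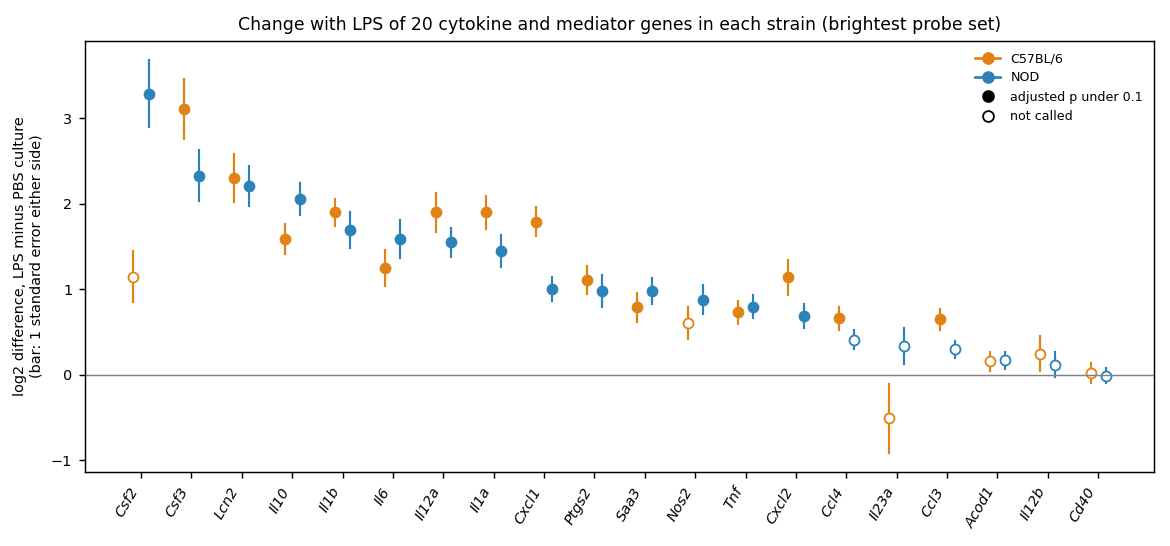
Log2 difference of LPS minus PBS culture for 20 cytokine and mediator genes in C57BL/6 (orange) and NOD (blue), with 1 standard error either side and filled points for an adjusted p under 0.1. In each strain 14 of the 20 rose, and Csf2, at 3.29 in NOD and 1.15 in C57BL/6, is the gene whose values lie farthest apart.

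Between the strains, some of the 20 genes differed in level. After LPS 10 of the 20 were higher in NOD than in C57BL/6 and none lower, next to 5.03% of all probe sets that were higher, led by Csf2 (2.36), Csf3 (1.72), Il6 (1.17) and Il1a (0.98). After PBS, with no LPS added, 8 were higher and none lower, next to 4.78% of all, led by Csf3 (2.51), Cxcl1 (1.68), Il1a (1.43) and Cxcl2 (0.92). In steady state 1 was higher and 5 were lower, next to 7.09% and 7.94% of all, with Saa3 at -2.48 and Il10 at -1.63. With PBS culture 19 of the 20 rose in NOD (median 3.40) and 17 in C57BL/6 (median 2.14), next to 37.8% and 42.1% of all probe sets, and the interaction was called more positive in NOD for 13, next to 3.98% of all. The comparisons at PBS and with culture share the PBS arrays. Of 12 interferon response genes downstream of TRIF, 10 had a probe set of their own. None was called with LPS in either strain (medians -0.07 and -0.08, and 0 at an unadjusted p under 0.05 in limma), all 10 rose with culture (medians 4.69 in NOD and 3.54 in C57BL/6), next to 37.8% and 42.1% of all probe sets. In steady state cells 7 were lower in NOD, next to 7.94% of all, with Ifit2 at -1.57 and Rsad2 at -1.52. Markers of NK cells were also lower in NOD steady state cells, 7 of the 8 measured (median -1.21), with a summed level of 4138 to 4773 against 8440 to 10388 in C57BL/6, and their part in this difference was not tested.

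Other lists of the pathway also held genes called with LPS. Over all probe sets 1.68% rose and 2.08% fell in NOD, and 0.715% rose and 0.762% fell in C57BL/6. Of 12 feedback regulators, most but not all of them purely negative, 5 rose in NOD. Among them were Zc3h12a (1.11), Irak3 (0.98), Nfkbiz (0.91) and Tnip1 (0.70). In C57BL/6 4 rose, at 1.08, 0.97, 1.05 and 0.69 for the same genes. Zc3h12a degrades cytokine transcripts, and Irak3 holds the MyD88 complex inactive. Of 7 accessory genes Cd36 (-0.81), Cd180 (-0.77) and Ly86 (-0.47) fell in NOD, and Cd180 fell in C57BL/6 (-0.76). CD180 with MD-1 (gene Ly86) is a relative of the TLR4 and MD-2 pair. Of 4 further Toll-like receptors Tlr13 (-0.91) and Tlr8 (-0.72) fell in NOD and Tlr13 (-1.22) in C57BL/6. Among 12 adaptors and kinases only Ikbke (0.65) was called in NOD and none in C57BL/6, and among 7 transcription factors only Nfkb2 (0.48) and none. Between the strains Tirap, the adaptor that bridges MyD88 to TLR2 and TLR4, was higher in NOD in steady state (0.43), after PBS (0.72) and after LPS (0.64). Tbk1 (0.50 and 0.57) and Irak2 (0.44 and 0.47) were higher in NOD after PBS and LPS. Tlr5, the flagellin receptor, was higher in NOD by 0.74 in steady state and with culture it fell by 3.32 in NOD and fell by 2.92 in C57BL/6.

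The 3 genes whose profile over the 22 arrays lay nearest to that of a member were found by the root mean square (RMS) difference of mean-centred log2 levels, as a description with the 6 groups shared by all points. For Tlr4 they were Aif1 (RMS 0.18), Slc15a4 (0.19) and Tlr7 (0.20), next to an SD of Tlr4 over the arrays of 0.43. For Cd14 they were Depdc7 (0.32), Gpr35 (0.33) and Gemin5 (0.34), next to an SD of 0.70. Tlr3 lay nearest to Nlrc5 (0.11), Mitd1 (0.14) and Asf1a (0.14), next to an SD of 0.96. Nearest to Tlr2 were Atp6v1h, Pbdc1 and Ociad1, to Tlr1 Rps18, Nme2 and Phb2, and to Tlr6 Ess2, Ypel5 and Cog1. Nearest to Tlr7 were Itm2b, Fbxw7 and Tyrobp, to Tlr9 Cysltr2, Wars and 4930404N11Rik, to Ly96 Txndc12, Tut7 and Tmod1, and to Myd88 Katna1, Usp42 and Tuba4a.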

How the data were processed

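RNA of sorted CD11c+CD8α- DCs, isolated with the PicoPure kit and amplified with the NuGEN Ovation Pico system, was hybridised to 22 Affymetrix arrays. The authors deposited log2 values made by RMA (robust multi-array average) in BRB-ArrayTools, with a version not given in the sources used here. These deposited log2 values were taken unchanged. Control probe sets (64) were left out, and of the 45037 tested 34945 name 1 gene, 932 several and 9160 none. Symbols followed RefSeq GRCm38.p6, with 99.4% of single-gene probe sets matched by Entrez identifier. The platform's gene annotation can be old, and probe sets of 1 gene need not measure the same transcript.

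Each comparison had a limma fit (version 3.58.1, R 4.3.3) that held only the arrays of the groups compared, and the threshold for a call was 0.1 after Benjamini-Hochberg adjustment of p. The authors' methods used a multivariate permutation test of BRB-ArrayTools, and limma stood in its place. The fits were tested on simulated data. Each array is taken as a pool of mice, and the number of arrays limits the precision. The p-values measure the spread between pools.

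The members and gene lists were chosen with earlier results of these data known. Every probe set of the members is named. From other lists the counts are given with up to 4 called genes of largest difference per comparison, on each gene's brightest probe set, and further genes named beyond these were chosen after their values were seen. The labels give groups the same replicate numbers. Deviations from the group means correlated between arrays of the same number by 0.109 to 0.433 in the steady state comparison, 0.241 to 0.487 and 0.259 to 0.423 with LPS in NOD and C57BL/6, and 0.137 to 0.32 and 0.114 to 0.345 between strains after PBS and LPS, and an alternative fit took equal numbers as pairs. Steady state and PBS arrays share only 2 numbers, which were not taken as pairs, and the fit with that block is given only as an alternative. Other alternatives were a threshold of 0.05, no dim probe sets, a fit over all 22 arrays, centred arrays, an intensity trend with robust spread, array quality weights, 1 probe set or the mean per gene, and leaving out each array.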

Additional observations from a re-analysis of the deposited data

Results flagged for a closer look

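In 5 of 64 groups of 4 arrays examined, a single array stood far from the other 3 by Dixon's test, where chance gives about 1 in 20. Ly96 was at 11.41 in NOD PBS replicate 1, above the others of its group. Myd88 was at 11.82 in NOD LPS replicate 3, below the others. Tlr1 was at 10.79 in C57BL/6 PBS replicate 3, Tlr3 (1422781_at) at 10.20 in C57BL/6 PBS replicate 1 and Tlr7 (1419848_x_at) at 10.39 in NOD LPS replicate 1, each above the others.

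The change from steady state to PBS culture was called different between NOD and C57BL/6 for 7 probe sets by the strain by culture interaction in limma. It was more positive in NOD for Cd14 (1.57), Myd88 (0.65), Tlr2 (0.83) and Tlr3 (1.41 for 1422781_at and 0.83 for 1422782_s_at). It was more negative in NOD for Tlr7 (-0.56 for 1419848_x_at) and Tlr9 (-0.81).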

How the results depend on the processing

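Of 144 differences, 61 were called. Of these calls 40 held without any single array, 45 in every other planned fit and 38 in all. Another 53 differences were never called under any setting.

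The count of 16 probe sets called in steady state went from 3 to 10 with array quality weights. With LPS in NOD it went from 6 to 3 with 1 probe set per gene. With LPS in C57BL/6 it went from 4 to 1 at an adjusted p under 0.05, and to 7 without the probe sets below the median level, in a fit over all 22 arrays, or with an intensity trend and robust spread. Between strains after LPS it went from 6 to 10 in the fit over all 22 arrays. With culture in NOD it went from 15 to 9 with 1 probe set per gene and to 8 with the mean over probe sets, where fewer features are counted. Otherwise the cause was not tested. The counts in this section stand without the share over all probe sets under the same setting. They do not tell whether the members moved apart from the other probe sets. Leaving out single arrays gave 2 to 4 in steady state, 3 to 7 and 0 to 3 with LPS in NOD and C57BL/6, 0 in the LPS interaction, 6 to 7 and 4 to 8 between strains after PBS and LPS, 13 to 15 and 11 to 13 with culture in NOD and C57BL/6, and 4 to 9 in the culture interaction. The lowest value there, 4, came without NOD steady state replicate 4.

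With the replicate number as a block the counts were 4, 9 and 3 in steady state and with LPS in NOD and C57BL/6, 0 in the LPS interaction, 11 and 9 between strains after PBS and LPS, 10 and 11 with culture and 7 in the culture interaction. Outside the culture comparisons, the calls of members it changed are those given in the report with the pairs. Steady state and cultured arrays share only a number, and there the block left Ly96 (NOD -0.28, adjusted p = 0.23, and C57BL/6 -0.30, 0.176), and in NOD Tlr6 (0.101), Tlr4 1442827_at (0.101) and 1418163_at (0.503) and Tlr7 1422010_at (0.337), without their call. The LPS interaction of Tlr4 1418162_at, 0.03, became -0.03 with this block, -0.05 with a block within each strain, an alternative chosen after seeing the data, and -0.11 to 0.13 without single arrays. Its culture difference in NOD became 0.07 with the block, and its strain difference after LPS became 0.09 as the mean over probe sets. Tlr4 1430695_at in steady state (0.09) became -0.02 without NOD replicate 6 and ranged up to 0.16. Tlr7 1422010_at with culture became 0.14 in NOD and 0.56 in C57BL/6 as the mean over probe sets. The 3 to 4 arrays per group limit what could be called.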
